A study of Mus musculus with 4 samples.

Results

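The DNA damage sensing and repair genes described here are a panel of 39 genes out of 30139 gene names on the array. The panel was chosen by name from textbook repair pathways, with earlier results of these data known. Each gene was matched to its own non-control probes by the gene name in the array files, and 39 of 39 had at least 1 probe, with 49 probes in all. Where a gene had several tested probes, the brightest stood for it. The mice were female, of strain C57B/6 and 8 to 10 weeks old, and all of them carried a floxed allele of Trib1 on both chromosomes. They had received an adeno-associated virus labelled AAV_Cre or a control virus labelled AAV_Null, and livers were taken 1 week later, after a fast of 4 hours. Cre is a recombinase that cuts out DNA between loxP sites, so AAV_Cre was meant to remove Trib1, a pseudokinase, from the liver. RNA of whole liver was measured on 4 arrays, each with 1 RNA of each treatment. RNA labelled AAV_Cre carried the dye Cy5 on the first pair of arrays (1 and 2), and the dye Cy3 on arrays 3 and 4. The labels name neither the promoter that drove Cre, nor the part of Trib1 that was floxed, nor whether an RNA came from 1 animal or from several. The log2 ratio of AAV_Cre over AAV_Null for Trib1 was 0.94 ± 0.08 (SE of the fit to 4 arrays). Trib1 was higher and not lower with AAV_Cre. Whether its probe reads the floxed part was not settled here, so the direction of every ratio rests on the labels.

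Cells watch their DNA with kinases that sense broken or stalled DNA, ATM, ATR and DNA-PK, and these stop the cell cycle and stabilise the transcription factor p53. Separate pathways then mend each kind of lesion: MGMT takes alkyl groups straight off guanine, base excision removes small altered bases, nucleotide excision cuts out bulky adducts, mismatch repair corrects copying errors, and broken strands are rejoined by end joining or by homologous recombination. In the resting liver most hepatocytes do not divide, yet they process reactive metabolites and express several of these pathways, MGMT among them.

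Of the 39 genes, 32 were above background in enough channels to be tested and 7 were not. Mgmt and Atr rose and 0 of the 32 fell. Over all 16079 genes tested in limma at an adjusted p of 0.05, 2.8% were called, with 1.83% higher and 0.976% lower. The median log2 ratio of AAV_Cre over AAV_Null was 0.028 over the 32 genes, against -0.00073 over all genes tested, and the 32 ranged from -0.23 to 0.79. Of the 32, 25 (78.1%) lay within 0.2 of no change on the log2 scale, against 79.7% of all genes. At an unadjusted p under 0.05 in limma there were 6 higher and 3 lower, 28.1% of the 32, where 22.6% of all genes tested passed. The arrays hold RNA of whole liver, where fewer cells of a type and less RNA per cell cannot be told apart.

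**Figure D1:**
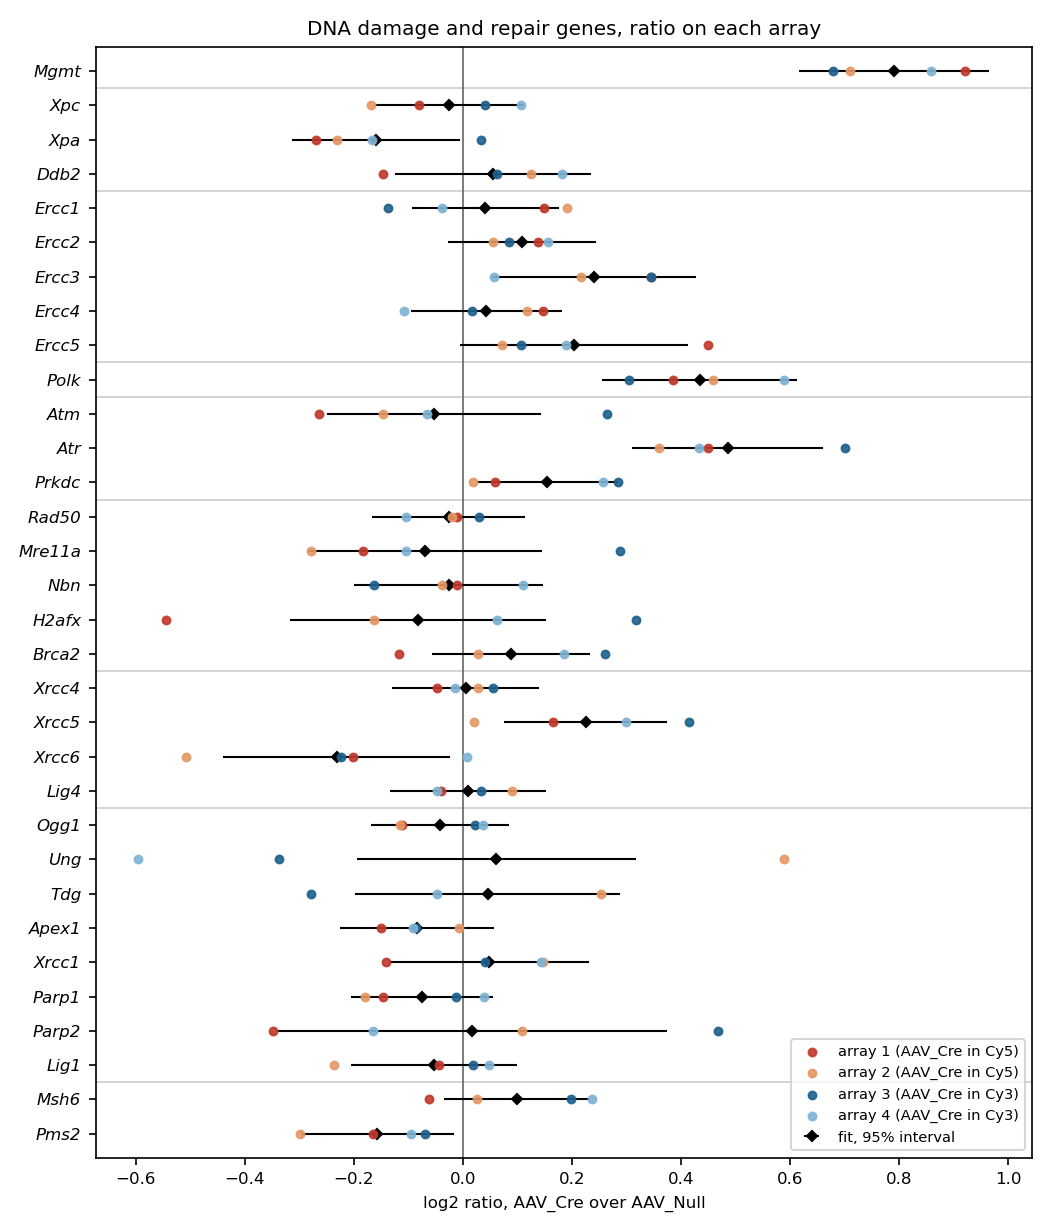
Log2 ratio of AAV_Cre over AAV_Null (x axis) for the 32 tested repair genes (y axis, grouped by pathway with grey lines between groups); coloured points are the arrays and black diamonds the limma fit with its 95% interval, from 4 arrays, or 3 for Ung and Tdg. Mgmt lies at 0.68 to 0.92 on the 4 arrays, Atr at 0.36 to 0.70 and Polk at 0.31 to 0.59, and most other genes have points on both sides of 0.

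The probes of Mgmt, Atr and Polk are shown because their ratios differ most from 0. The second probes of Atr and Polk are shown as well. That of Atr did not pass the test, and that of Polk was above background in too few channels to be tested. The last 30 bases of each 60-base probe read, 5′ to 3′ in the sense of the transcript, with no part marked:
Mgmt probe, chr7:144319790-144319849 (mm9, + strand): cggatgtgtggtggcaccactatattaaaa
Atr probe of the RefSeq transcript, chr9:95851956-95852015 (mm9, + strand): agctactgatgaaaacttactctgtcagat
Atr probe of a cDNA clone, chr9:95804322-95804381 (mm9, + strand): cagatccctgaacccatataaaaagccaga
Polk probe that was tested, chr13:97251653-97251712 (mm9, - strand): atgtccatgaagaacattagcttaacataa
Polk probe not above background, chr13:97256835-97256894 (mm9, - strand): ccgccatttctactgcagaggaaatatttg
The coordinates cover the whole probe. None of these 5 probes shared a run of 16 bases or more with a probe of another gene on the array.

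Mgmt, which transfers alkyl groups from guanine to itself and is used up in the act, rose most. In RNA labelled AAV_Cre its normalised log2 intensity was 12.64, 12.52, 12.49 and 12.49 on arrays 1 to 4. In RNA labelled AAV_Null it was 11.72, 11.81, 11.81 and 11.64. The lowest AAV_Cre value lay above the highest AAV_Null value, and both treatments varied little between arrays; of all genes tested, 3.25% had their AAV_Cre intensities wholly above their AAV_Null intensities. The log2 ratio was 0.92, 0.71, 0.68 and 0.86 on the 4 arrays. Its fit gave 0.79 ± 0.066 (SE, n = 4 arrays), or 1.73-fold, with a 95% interval of 0.62 to 0.97 and an adjusted p of 0.0204 in limma. It ranked 114 of 16079 genes by the size of the log2 ratio, counted from the highest. The mean was 0.81 on arrays 1 and 2 and 0.77 on arrays 3 and 4, so the rise was of like size in both dye orientations. With any 1 array left out the call was lost (adjusted p of 0.0629 to 0.140) while the log2 ratio stayed at 0.74 to 0.84.

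Atr, the kinase that responds to single-stranded DNA at stalled replication forks, also rose, by its RefSeq probe. The log2 ratio was 0.45, 0.36, 0.70 and 0.43 on arrays 1 to 4. Every array showed a rise, with array 3 the highest. Log2 intensities were 10.89, 10.75, 11.46 and 11.37 in RNA labelled AAV_Cre and 10.44, 10.39, 10.76 and 10.94 in RNA labelled AAV_Null. The treatments overlapped across arrays, since both RNAs of arrays 3 and 4 were brighter than those of arrays 1 and 2, and they separated within each array. The fit gave 0.49 ± 0.067 (SE, n = 4 arrays), or 1.40-fold, with a 95% interval of 0.31 to 0.66 and an adjusted p of 0.0438. Without any 1 array the adjusted p was 0.0787 to 0.238.

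The second Atr probe did not pass the test. It reads a cDNA clone and lies 47634 bases before the RefSeq probe, and its log2 ratio was -0.20, -0.18, 0.73 and 0.20 on arrays 1 to 4. Both Cy5 arrays were low and both Cy3 arrays high. The fit gave 0.14 ± 0.099 with an unadjusted p of 0.229 in limma. This probe was much dimmer, with a mean log2 intensity of 7.38 against 10.87 for the RefSeq probe. Both were above background in 4 of 4 channels of each treatment. The difference between the Atr probes was not tested. With the probes averaged, Atr had a log2 ratio of 0.31 and an adjusted p of 0.129, so the rise is that of the RefSeq probe.

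Polk, a polymerase that copies past bulky adducts on guanine, had the next highest log2 ratio and just missed the threshold. The log2 ratio was 0.38, 0.46, 0.31 and 0.59 on arrays 1 to 4. Log2 intensities were 8.04, 8.06, 7.97 and 7.73 in RNA labelled AAV_Cre, against 7.66, 7.60, 7.66 and 7.14 in RNA labelled AAV_Null. The treatments did not overlap, and array 4 was dimmest for both. The fit gave 0.43 ± 0.068 (SE, n = 4 arrays), or 1.35-fold, with a 95% interval of 0.26 to 0.61 and an adjusted p of 0.0549. With Agilent's processed ratios the log2 ratio of Polk was 0.68, the highest of its alternatives, with an adjusted p of 0.0178. The other Polk probe, 5182 bases away, was above background in 1 of 4 AAV_Cre channels and 0 of 4 AAV_Null channels and was not tested. Polh, a sister polymerase that copies past ultraviolet lesions, was above background in 1 AAV_Cre and 2 AAV_Null channels. Rrm2b, the p53-inducible small subunit of ribonucleotide reductase, had a probe above background in 1 AAV_Cre and 2 AAV_Null channels and another above it in 0 of 8, so neither gene has a ratio here.

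**Figure D2:**
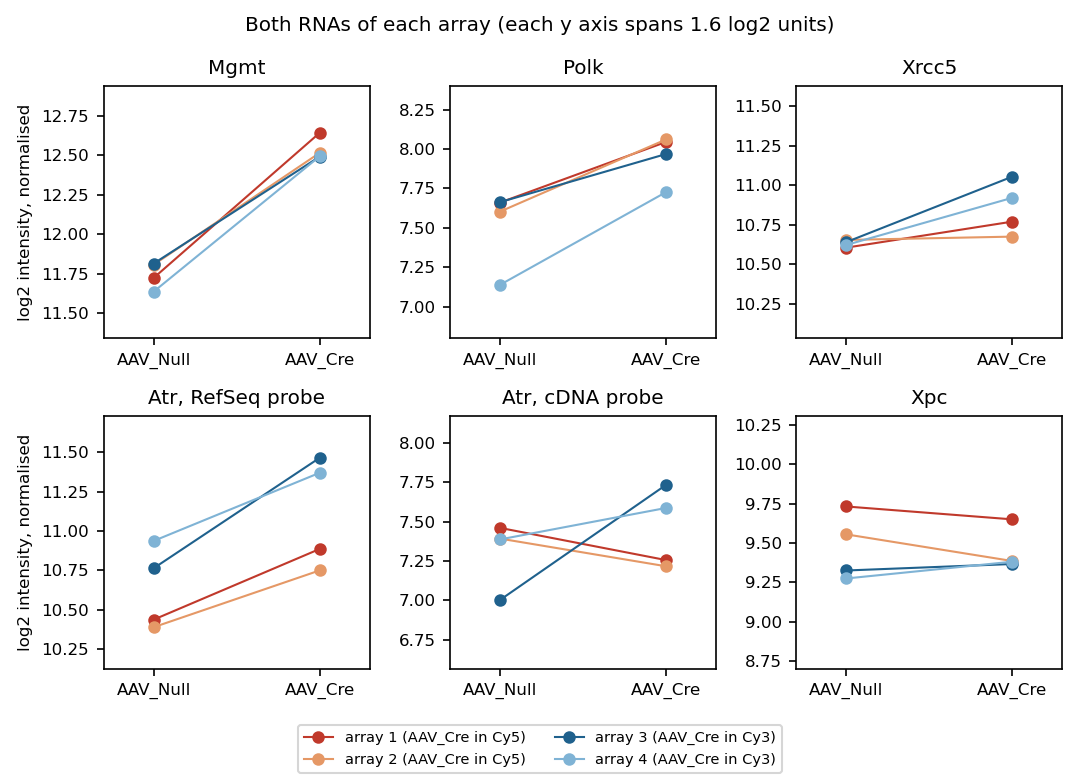
Normalised log2 intensity (y axis, 1.6 log2 units in every panel) in RNA labelled AAV_Null and AAV_Cre (x axis) for 6 probes; each line joins both RNAs of 1 array. Every Mgmt line climbs, from 11.64 to 11.81 up to 12.49 to 12.64, the RefSeq probe of Atr climbs on 4 arrays from array-specific levels, the cDNA probe of Atr climbs on arrays 3 and 4 and falls on arrays 1 and 2, and the Xpc lines stay nearly level.

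Nucleotide excision repair opens with proteins that find the distorted helix. Of these, Xpc, the first sensor, had log2 ratios of -0.08, -0.17, 0.04 and 0.11 on arrays 1 to 4. Values lay on both sides of 0, and the fit gave -0.026 ± 0.052 with a 95% interval of -0.16 to 0.11 (adjusted p of 0.803). Ddb2, which recognises ultraviolet damage, had a log2 ratio of 0.055 ± 0.068 (adjusted p of 0.674). In human cells both Xpc and Ddb2 are known to be induced by p53. Xpa, a scaffold that checks the lesion, had log2 ratios of -0.27, -0.23, 0.03 and -0.17. It was lower on 3 of 4 arrays, at -0.16 ± 0.059 and an adjusted p of 0.212, and its other probe gave -0.12. Ercc6, which starts repair where RNA polymerase stalls, was above background in 2 of 4 channels of each treatment and was not tested.

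The helicases and nucleases that open and cut the damaged strand did not pass the test. A fitted log2 ratio above 0 was found for 5 of 5, against 19 of the 32 panel genes and 8005 of all 16079 genes tested. Ercc3 and Ercc2 are the helicases of the transcription factor TFIIH. Ercc3 had the higher log2 ratio, 0.24 ± 0.071 with an adjusted p of 0.150, and was above 0 on 4 of 4 arrays. Ercc2 had 0.11 and an adjusted p of 0.302, also with 4 of 4 arrays above 0. Ercc5, the nuclease that cuts on the 3′ side, had 0.20 ± 0.080 (adjusted p of 0.231), and its other probe had 0.18. Ercc4 and Ercc1 form the nuclease that cuts on the 5′ side. Ercc4 had log2 ratios of 0.15, 0.12, 0.02 and -0.11, high on the Cy5 arrays and low on array 4, and a fit of 0.043 ± 0.053. Ercc1 had 0.041, and its sign turned with Agilent's processed ratios and with no background subtraction.

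None of the other damage kinases passed the test. Prkdc, the catalytic subunit of DNA-PK, was printed as 10 spots and had log2 ratios of 0.06, 0.02, 0.28 and 0.26. It was above 0 on 4 of 4 arrays, most so with AAV_Cre in Cy3, and its fit of 0.15 ± 0.049 had an adjusted p of 0.167. Atm, the kinase recruited to broken ends, had -0.053, and its probe of 10 spots had -0.048. Chek1, the kinase downstream of ATR, was above background in 1 AAV_Cre and 2 AAV_Null channels, and Chek2, downstream of ATM, in 0 of 8, so the arrays give no ratio for either.

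At broken ends, Rad50, Mre11a and Nbn make up the complex that holds and trims the ends, and none of the trio passed the test. Rad50 had log2 ratios of -0.01, -0.02, 0.03 and -0.11, all close to 0, with a fit of -0.027 ± 0.053. Mre11a had -0.070 and Nbn -0.026. H2afx, the histone variant that is phosphorylated around breaks, had -0.55, -0.16, 0.32 and 0.06, low on both arrays with AAV_Cre in Cy5 and high on both with AAV_Cre in Cy3. Its fit was -0.082 ± 0.089, with an unadjusted p of 0.031 in limma for the dye effect. Brca2, which is needed for homologous recombination, had 0.089. Brca1, its partner in recombination, was above background in 1 of 4 channels of each treatment, and Fancd2, central to repair of DNA crosslinks, in 0 of 8.

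End joining gave fitted ratios on both sides of 0 within 1 complex. Xrcc5 and Xrcc6 encode the Ku80 and Ku70 subunits that cap a broken end together. Xrcc5 had log2 ratios of 0.16, 0.02, 0.41 and 0.30, above 0 on 4 of 4 arrays, with a fit of 0.22 ± 0.057 and an adjusted p of 0.120. Xrcc6 had -0.20, -0.51, -0.22 and 0.0070, below 0 on 3 of 4 arrays, with a fit of -0.23 ± 0.079 and an adjusted p of 0.189. Neither passed the test, and the difference between them was not tested. Ligase 4 (Lig4), which seals the break, had 0.0084, and its partner Xrcc4 had 0.0049.

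Base excision and single-strand break repair held 8 tested genes. None passed the test, 0 had an unadjusted p under 0.05 in limma, and the fitted log2 ratios lay between -0.084 and 0.061. Apex1, which cuts the backbone at a missing base, had -0.084 and was below 0 on 4 of 4 arrays. Parp1, the main sensor of nicked DNA, had -0.076, Ogg1, which removes oxidised guanine, -0.042, Xrcc1, the scaffold of nick repair, 0.048, and the ligase Lig1 -0.053. Tdg, a thymine glycosylase, had 0.045 by its brightest probe and 0.11 and -0.031 by the others. The probe at -0.031 was dim, with a mean log2 intensity of 6.97 and an SE of 0.132. It shared a run of 29 bases with a probe of another gene name, so its value may not be specific to Tdg. Parp2, the smaller relative of Parp1, was dim, with 3 AAV_Cre and 2 AAV_Null channels above background and an SE of 0.137.

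Ung, the uracil glycosylase, is read by a probe whose sequence limits what it can say. The probe lies at chr5:114588731-114588790 (mm9, + strand), and its last 30 bases are shown because they lie within a run of the dinucleotide GT (capitals):
Ung: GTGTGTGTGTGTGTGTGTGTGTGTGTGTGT
Probes of other genes that share a run of at least 16 bases with it numbered 73, and the longest shared run was 35 bases. Its log2 ratio was 0.59 on array 2, -0.34 on array 3 and -0.60 on array 4, with the spot of array 1 marked as an outlier. The sign followed the orientation, in which dye and RNA pair cannot be told apart. The fitted dye effect was 0.53, with array 2 the only one of AAV_Cre in Cy5. The treatment fit was 0.061 ± 0.089.

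Mismatch repair was represented by Msh6, which helps to find mismatches, and Pms2, a nuclease subunit that cuts the new strand. Msh6 had log2 ratios of -0.06, 0.03, 0.20 and 0.24, higher on the arrays with AAV_Cre in Cy3, and a fit of 0.099 (adjusted p of 0.329). Pms2 had -0.16, -0.30, -0.07 and -0.09. It was below 0 on 4 of 4 arrays, at -0.16 ± 0.053 and an adjusted p of 0.187, while its other probe was above background in 0 of 8 channels. In the authors' deposited table the Pms2 values were 0.055, -0.36, 0.085 and -0.0060, on both sides of 0. The fitted log2 ratio was -0.069 with Agilent's processed ratios and -0.054 with no background subtraction.

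Most of the panel stayed within narrow bounds, as did most of all genes tested. The 95% interval lay within 0.5 of no change on the log2 scale (1.41-fold) for 29 of the 32 genes (90.6%), against 86.8% of all genes. The exceptions are Mgmt, Atr and Polk. It lay within 0.3 for 21 of the 32, against 8915 of all 16079 genes tested. Every AAV_Cre intensity lay above every AAV_Null intensity for 3 of the 32, Mgmt, Polk and Xrcc5, against 3.25% of all genes tested (5.88% did not overlap in either direction). Of the 30 genes with a value on 4 arrays, 10 (33.3%) had the same sign on all of them, 8 of these higher. Of all genes measured on 4 arrays, 23.7% had the same sign and 12.4% were higher on each. The mean of arrays 1 and 2 and the mean of arrays 3 and 4 had opposite signs for 17 of the 32 (53.1%), against 52% of all genes. Of the 17, 12 (70.6%) were low with AAV_Cre in Cy5 and high with it in Cy3, against 57.1% of all genes with opposite signs. Since each orientation also holds other RNAs, dye and RNA pair cannot be told apart in such a pattern.

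Outside the panel, 101 further repair and checkpoint genes were listed by pathway and 85 were tested, of which 0 rose and 1 fell in limma. Over all genes tested, 1.83% were called higher and 0.976% lower. At an unadjusted p under 0.05 in limma there were 7 higher and 11 lower. These made up 21.2% of the 85, near the 22.6% of all genes tested. The median log2 ratio of the 85 was -0.029. Rad51b, which acts in homologous recombination, was the gene that fell, with log2 ratios of -0.49, -0.89, -0.81 and -0.98. It was low on 4 of 4 arrays, at -0.79 ± 0.086 and an adjusted p of 0.0299.

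In the other 7 lists no gene passed, and the gene of smallest p is given for each. Polb, the gap-filling polymerase of base excision, had a log2 ratio of 0.38 with an adjusted p of 0.0539 among 14 genes. Poli, a bypass polymerase like Polk, had -0.28 and 0.0703 among 10. Pms1, a mismatch repair relative of Pms2, had -0.44 and 0.0574 among 5. Fancf of the Fanconi complex had -0.24 and 0.0879 among 7, Cetn2, which binds XPC, -0.22 and 0.0987 among 19, Trp53bp1, a break adaptor, -0.27 and 0.124 among 6, and Wee1, an inhibitor of mitotic entry, -0.37 and 0.213 among 12. Of these 7 genes, each picked by its p, Polb was above 0 and the other 6 were below it, as was Rad51b. Of the 85 further genes tested, 35 had a fitted log2 ratio above 0, against 8005 of all 16079 genes tested.

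Of 8 genes of nucleotide supply, Rrm2, the replicative small subunit of ribonucleotide reductase, rose by 0.50 ± 0.065 (adjusted p of 0.0395), and 0 fell. Its log2 ratio was 0.54, 0.70, 0.27 and 0.48 on the 4 arrays, above 0 on each. Of 16 cell cycle genes 0 were called, with a median log2 ratio of -0.14. E2f1, a transcription factor of S phase entry, had the smallest p, at -0.31 and an adjusted p of 0.128.

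Targets of p53 that lie outside the repair panel stood apart in size. This list had been shown to rise in earlier results of these data and is not independent evidence. Of 19 tested, 10 rose and 0 fell, with a median log2 ratio of 0.80 and array medians of 0.65, 0.83, 0.87 and 0.73. At an unadjusted p under 0.05 in limma there were 11 higher and 2 lower. The lower ones were Plk3, at -0.39 with an adjusted p of 0.0695, and Perp, at -0.25 with an adjusted p of 0.119, both named here after their values were seen. The highest among the called genes were Phlda3, an inhibitor of AKT, at 2.28, Cdkn1a, the cell cycle inhibitor p21, at 1.46, Gadd45a, a stress protein, at 1.29, and Ccng1, cyclin G1, at 1.01. The repair panel had array medians of -0.056, 0.026, 0.048 and 0.043 on the same arrays.

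**Figure D3:**
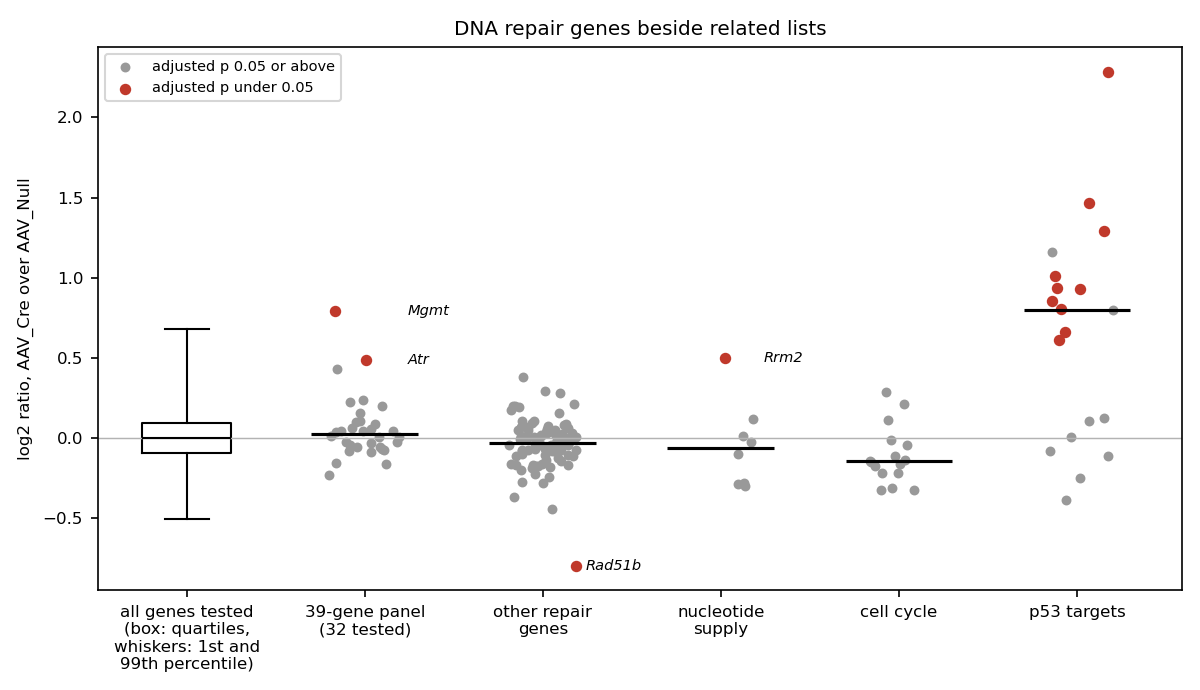
Fitted log2 ratio of AAV_Cre over AAV_Null (y axis) for the repair panel and related gene lists (x axis); points are genes, red where the adjusted p in limma was under 0.05, black bars are list medians, and the box gives all 16079 genes tested. Panel and other repair genes gather around 0, with Mgmt at 0.79 and Rad51b at -0.79 at the edges, while the median p53 target lies at 0.80.

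The promoters of Mgmt, Atr and Polk are shown because these genes had the highest ratios of the panel. RefSeq (GRCm38.p6) gave a start for 30 of the 39 genes, with 35 starts in all, and the 250 bases before each start were searched on both strands. Capitals mark GGGCGG or its reverse complement, the GC box that the factor SP1 is known to bind, and every window is read 5′ to 3′ on the strand of the gene:
Mgmt, chr7:136894336-136894585 (+ strand): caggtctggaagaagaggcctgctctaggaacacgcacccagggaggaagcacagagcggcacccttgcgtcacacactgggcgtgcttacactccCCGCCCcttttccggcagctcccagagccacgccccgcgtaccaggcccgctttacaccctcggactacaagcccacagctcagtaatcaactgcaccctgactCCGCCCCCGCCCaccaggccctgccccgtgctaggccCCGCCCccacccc
Atr, chr9:95857347-95857596 (+ strand): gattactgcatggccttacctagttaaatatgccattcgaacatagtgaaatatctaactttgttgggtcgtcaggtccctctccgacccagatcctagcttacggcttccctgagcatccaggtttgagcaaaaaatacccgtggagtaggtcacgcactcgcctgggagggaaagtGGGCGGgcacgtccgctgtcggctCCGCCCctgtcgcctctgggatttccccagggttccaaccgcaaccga
Polk, chr13:96542580-96542829 (- strand): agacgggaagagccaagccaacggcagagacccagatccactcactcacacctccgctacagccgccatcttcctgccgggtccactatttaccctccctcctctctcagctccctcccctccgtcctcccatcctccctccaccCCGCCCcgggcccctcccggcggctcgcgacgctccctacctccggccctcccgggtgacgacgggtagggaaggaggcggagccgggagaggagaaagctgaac
These windows hold 4 matches for Mgmt, 2 for Atr and 1 for Polk. A second annotated start of Mgmt, with its window at chr7:136912848-136913097 (+ strand), and the second start of Polk hold 0. A match was found in 20 of the 35 windows of the panel (57.1%) and in 32.7% of all 32851 promoter windows. CCAAT stood in 42.9% of the panel's windows against 33.9% of all, and TATAAA in 2.86% against 12.4%. The motifs were counted separately whether or not they overlapped. Windows of the panel held a median of 18 CG dinucleotides, against 6 in all windows.

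The p53 half-site motif was searched in the same windows. No window was available for Xpc, Ddb2, Rrm2b, Ercc3, Prkdc, Rad50, Nbn, H2afx or Fancd2, so these genes were not searched. The motif was found in 1 of 35 windows (2.86%), against 7.13% of all windows, and that window lies before a second annotated start of Polk. Capitals mark the match, which begins at base 20:
Polk, second start, chr13:96519188-96519437 (- strand): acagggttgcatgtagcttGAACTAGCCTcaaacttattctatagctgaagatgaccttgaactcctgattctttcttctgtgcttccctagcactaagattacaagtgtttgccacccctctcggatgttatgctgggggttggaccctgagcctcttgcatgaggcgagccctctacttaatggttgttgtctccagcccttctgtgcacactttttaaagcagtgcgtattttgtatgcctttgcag
A pair of motifs with at most 13 bases between them was found in 0 of 35 windows and in 0.06% of all. CATGNNNNNNCATG, the core of a pair that abuts and has CATG at both centres, was found in 0 of 35 and 0.49%. These windows leave out introns and more distant sequence, where p53 is also known to bind.

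Over 17 alternative settings that kept all 4 arrays, Mgmt was called in 16, Atr in 12 and Polk in 7. The adjusted p in limma ranged from 0.00199 to 0.0437 for Mgmt, from 0.00909 to 0.129 for Atr and from 0.00874 to 0.0792 for Polk. Mgmt missed only the stricter threshold of 0.01. Ercc5 was the one further gene of the panel that passed under any of them, at 0.0433 with no background subtraction and at 0.0445 with the authors' deposited values. In the authors' deposited table, Mgmt stood at 0.93, 0.72, 0.68 and 0.86 on the 4 arrays. The authors' deposited table gave means of 0.80 for Mgmt, 0.50 for Atr, 0.48 for Polk and 0.27 for Ercc5.

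**Figure D4:**
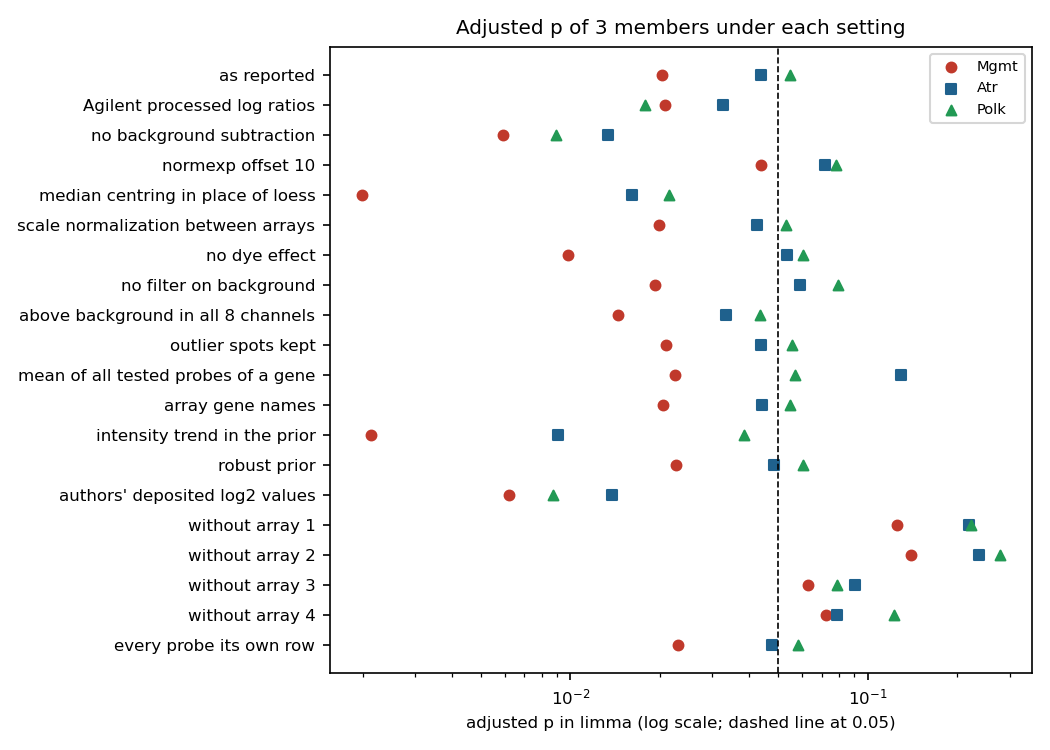
Adjusted p in limma (x axis, log scale) of Mgmt, Atr and Polk under each processing setting (y axis), with the threshold of 0.05 as a dashed line. Mgmt lies left of the line in every setting drawn that keeps 4 arrays. In those settings Atr lies on both sides of the line, from 0.00909 to 0.129, as does Polk, from 0.00874 to 0.0792. All 3 genes lie right of the line when any array is left out.

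Whole-array facts that touch these values are few. Across genes, which are not independent replicates, the correlation of log2 ratios was 0.67 for arrays 1 and 2, 0.49 for arrays 3 and 4, and 0.064 to 0.19 for arrays of unlike orientation. Between 51% and 58.7% of spots were well above background in a channel, and 0 were saturated. All 10 hepatocyte markers listed were above background. Markers of other cell types were tested too, among them 9 of 9 endothelial, 6 of 6 neutrophil and 6 of 11 T and natural killer cell markers. Being above background therefore does not check the label of liver. Of the 10 hepatocyte markers, 4 had a fitted ratio above 0, with a list median of -0.047 and array medians of 0.25, 0.26, -0.29 and -0.50. At an unadjusted p under 0.05 in limma 4 were lower and 2 higher. Trf, transferrin, was called lower, with 0.30, 0.36, -1.19 and -1.52 on the 4 arrays. Its sign followed the orientation, in which dye and RNA pair cannot be told apart. Of 7 stellate cell and matrix markers 6 had a fitted ratio above 0 and Col3a1, a collagen, was called higher at 0.47. The stellate list had a median of 0.33 over a range of -0.055 to 0.47, and its part in the rises of Mgmt and Atr was not tested. The 7 lists of macrophage, endothelial, erythroid, neutrophil, cholangiocyte, B cell and T or natural killer cell markers had 0 called. Of 11 macrophage markers 1 had a fitted ratio above 0, with a list median of -0.20 and array medians of -0.31, -0.23, 0.35 and -0.64. Of 9 endothelial markers 2 were above 0, with a median of -0.14, and at an unadjusted p under 0.05 in limma 5 were lower and 1 higher. Of 6 neutrophil markers 1 was above 0, with a median of -0.14. The part of these lists in the panel's ratios was not tested either.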

How the data were processed

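Whole-liver RNA was hybridised to 4 Agilent 2-colour arrays of 1 slide with balanced dyes, each RNA once. Agilent Feature Extraction 11.5.1.1 gave the intensity and local background of each spot and a processed log10 ratio of Cy5 over Cy3, per the file headers. A log2 table was deposited; its normalisation is not given in the sources used here, and against the scanner log10 ratio over spots above 2000 in both dyes it had slopes of 3.35, 3.34, -3.30 and -3.39 (log2 of AAV_Cre over AAV_Null under the labels' dyes) and array medians of -0.02, -0.04, 0.04 and 0.04.

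Here mean intensities were corrected by normexp (offset 50) and loess, with control and outlier spots at weight 0, in limma 3.58.1 (R 4.3.3). Outlier spots were left out and spots of a probe averaged. A probe was kept when well above background in at least 3 of 4 channels of either treatment and measured on at least 3 arrays. Treatment and dye effects were fitted by lmFit and eBayes (at most 2 residual degrees of freedom, and 2.67 prior ones), and p-values adjusted by Benjamini-Hochberg over 16079 genes, each by its brightest probe. Behind each p-value stands the spread within an orientation, which may be technical, and 4 arrays limit the precision; an exact sign permutation test could not go below p = 0.125. Members and lists were chosen with earlier results of these data known. All members are given, with array values for called members and the brightest uncalled one of each group; of other lists, up to 4 called genes or that of smallest p. Array values of other members were chosen for print with those values known. Simulated data with known changes were used to test the fit. Alternatives were other background corrections, normalisations, filters, probe rules, priors, thresholds, the deposited log2 values and each array left out. Symbols were updated through RefSeq (GRCm38.p6), and probe coordinates are those of the arrays, mm9.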

Additional observations from a re-analysis of the deposited data

How the results depend on the processing

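The number of panel genes called higher was 2 as reported. It was 4 with no background subtraction and with the authors' deposited values, 1 with a normexp offset of 10, with no dye effect, with no filter and with the mean of all probes of a gene, and 0 at an adjusted p of 0.01; other settings that kept 4 arrays gave 2 or 3. Leaving out an array gave 0 to 0, and Mgmt and Atr both lost their call whichever array was left out. None was called lower in any setting run. Over all genes 451 were called as reported, against 728 with Agilent's processed ratios, 1411 with no background subtraction, 188 at an offset of 10, 765 with median centring, 286 with no dye effect, 288 with no filter, 1314 with an intensity trend, 1372 with the deposited values, 1307 at an adjusted p of 0.1 and 12 at 0.01, and 0 to 38 with an array left out (14, 0, 38 and 5 without arrays 1 to 4). The cause of these shifts was not tested. The median log2 ratio of the panel stayed within 1 SD (0.048) of its main value of 0.028 in every setting. That SD is of the panel median over the 4 arrays. It is wider than the median itself, so the bound would also admit values below 0. Of 668 single-gene values 33 changed sign, in 14 genes, none of them called. With Agilent's processed ratios, Ercc1 had -0.044, Mre11a 0.016, Nbn 0.018, Xrcc4 -0.0042 and Lig4 -0.030. With no background subtraction, Ercc1 had -0.022, Mre11a 0.017, Nbn 0.019, Lig4 -0.019 and Ogg1 0.0011. With the deposited values, Ercc1 had -0.022, Mre11a 0.019, Nbn 0.020, Lig4 -0.020 and Ogg1 0.0013. Parp2 had -0.023 at an offset of 10 and -0.026 with median centring, Ung -0.11 and Tdg -0.024 with no dye effect, and Ung -0.0019 with outlier spots kept. With 1 array left out the ranges crossed 0 for H2afx (-0.18 to 0.013), Ddb2 (-0.013 to 0.12), Xrcc4 (-0.014 to 0.024), Lig4 (-0.024 to 0.041), Xrcc1 (-0.025 to 0.12), Parp2 (-0.14 to 0.17), Nbn (-0.094 to 0.042), Atm (-0.14 to 0.029), Rad50 (-0.060 to 0.0072) and Mre11a (-0.17 to 0.028). Agilent's processed ratios also moved Prkdc to 0.33, Ddb2 to 0.16, Tdg to 0.32 and Parp1 to -0.19, with no change of sign or call. The ratio on each array pairs its AAV_Cre and AAV_Null RNA, so every fit here is paired by array.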
